A study of Homo sapiens with 6 samples.

Results

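The genes described here encode the machinery that carries newly made proteins from the endoplasmic reticulum (ER) to the Golgi and brings escaped ER residents back. A list of 49 genes was used, matched by symbol to the 62703 Ensembl gene IDs of the deposited tables, and each symbol matched 1 ID. The list holds 12 genes of the COPII coat, 8 of the COPI coat, 4 ARF GTPases and regulators, 7 genes of the p24 (TMED) family, 3 KDEL receptors, 9 cargo receptors and proteins of the ER-Golgi intermediate compartment (ERGIC), and 6 tethers, SNAREs and a Golgi membrane protein. All 49 were expressed above the filter on low counts.

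COPII vesicles form at ER exit sites. PREB (SEC12) loads the GTPase SAR1, which recruits the inner coat of SEC23 and SEC24, and SEC24 picks the cargo before the outer coat of SEC13 and SEC31 closes around the bud. COPI vesicles, assembled by ARF GTPases, return receptors and ER residents, among them chaperones that end in the KDEL signal. Plasma cells and their tumours secrete large amounts of immunoglobulin and load this route heavily, and many of its genes are known targets of the unfolded protein response.

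Libraries came from NCI-H929 (H929), an established human multiple myeloma line that carries t(4;14). Its genotype is given as wild-type, which leaves out tumour changes such as t(4;14). Cells received 1 µM Mi-2, a compound that inhibits MALT1 (a paracaspase of the NF-κB pathway), or the solvent DMSO for 24 h. Each treatment has 3 libraries, named D1, D2 and D3 (DMSO) and M1, M2 and M3 (Mi-2) below. All data are from 1 line, 1 dose and 1 time. No label says that the libraries are from separate cultures, and every title carries the same biological replicate number, so the p-values weigh differences against a spread between samples that could be technical alone.

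Total estimated counts ran from 19980689 to 23756745 per library. Levels below are CPM, counts scaled to library size with TMM, unless given as deposited TPM, which correct for gene length and allow levels of different genes to be compared. Values per library are given in the order D1, D2, D3 and M1, M2, M3. A change is a log2 fold change of Mi-2 over DMSO with its standard error. A gene was called when the adjusted p of edgeR's quasi-likelihood test, over 16082 genes, was under 0.05. Of 10 plasma cell markers, JCHAIN was the most abundant at 4010.0 to 5465 CPM, IRF4 and MZB1 rose and SDC1 and CD38 fell, and the mature B cell markers summed to at most 0.604 CPM. Of 9 T and NK cell markers 1 rose, CD3E, and the list summed to 28.5 to 36.1 CPM with DMSO and 42.2 to 48.3 with Mi-2, with CD3D and CD8A at 0. CD3E alone made up most of that sum, at 26.7 to 44.8 CPM over all libraries. Of 9 fibroblast, endothelial and epithelial markers 2 rose, PECAM1 and KRT18, and the list summed to 64.9 to 79.4 CPM with DMSO and 90.9 to 107 with Mi-2, with COL1A2, COL3A1 and CDH5 at 0. Most of this sum was PECAM1, at 57.1 to 87.5 CPM over all libraries. The part of these markers in the results below was not tested, and in bulk samples fewer cells of a type and less RNA per cell cannot be told apart.

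With Mi-2, 24 of the 49 genes rose and none fell. Over all genes tested, 5.02% were called higher and 6.03% lower. The members' median log2 fold change was 0.40, against 0.00 over all genes tested, and 48 of the 49 had a positive value where 50.7% of all genes did. At an unadjusted p under 0.05, 40 members were higher and 0 lower, against 12.9% and 14.1% of all genes tested. DESeq2, which called 7.21% of genes higher, called 32 members, among them all 24. Limma on log2(TPM + 1), which called 1.64% higher, called 12 of the 24, and on log2(TPM + 0.1), which called 1.78%, 12 members. Limma on log2(TPM + 1) without a filter on TPM called 0 members and 0% of all genes. In that fit 33 members were higher and 0 lower at an unadjusted p under 0.05, as were 5.84% and 6.27% of all genes. No fit called a member lower. Summed over the 49 genes, the deposited TPM were 6021, 5352 and 5061 with DMSO and 7509, 6761 and 6408 with Mi-2. The lowest Mi-2 sum stood above the highest DMSO sum. By sub-group this did not hold for the KDEL receptors (D1 565, M2 496) or the cargo receptors and ERGIC proteins (D1 1582, M3 1567). It held for the other sub-groups.

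**Figure D1:**
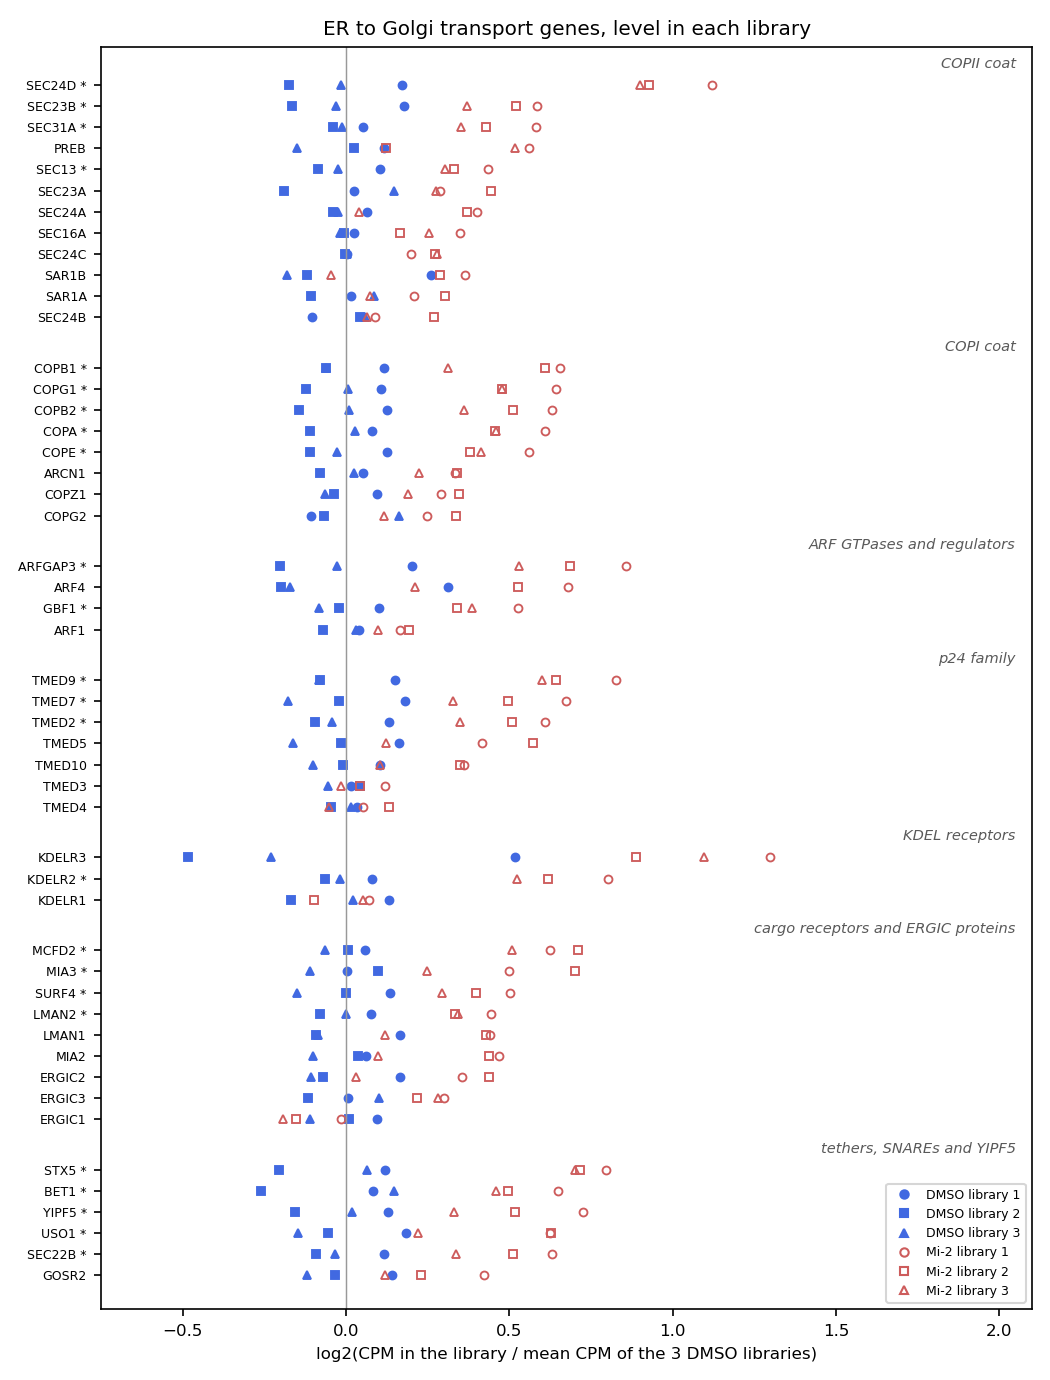
Level of each of the 49 genes in each library, as log2 of its CPM over the mean CPM of the 3 DMSO libraries (x axis), by sub-group. Filled blue symbols are DMSO, open red symbols Mi-2, and an asterisk marks an edgeR adjusted p under 0.05. In 35 genes every Mi-2 library lies to the right of every DMSO library.

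The CPM ranges of the treatments were separate, with Mi-2 higher, for 35 of the 49 genes, and for 15.7% of all genes tested. They were separate with Mi-2 lower for none, against 16.6% of all genes. Libraries within a treatment also kept an order across most members. D1 was the highest DMSO library for 40 of 49 genes (33.3% of all genes tested), M1 the highest Mi-2 library for 35 (32.0%) and M3 the lowest for 38 (33.0%). The members' median log2 difference from the DMSO mean was 0.10, -0.07 and -0.03 with DMSO and 0.51, 0.43 and 0.28 with Mi-2. Members deviated together within a treatment and are not independent of each other.

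The number called depended on the libraries. Leaving out D2 gave 7 calls (1.49% of all genes called higher), D3 9 (1.66%), M1 8 (1.31%), M2 16 (3.13%), D1 25 (3.88%) and M3 30 (4.37%). SEC24D, STX5, ARFGAP3, TMED9, KDELR2, MCFD2 and COPG1 stayed called whichever library was removed, while the other 17 lost theirs in at least 1 such fit. The median change of the members ran only from 0.36 to 0.47 over the same 6 fits.

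**Figure D2:**
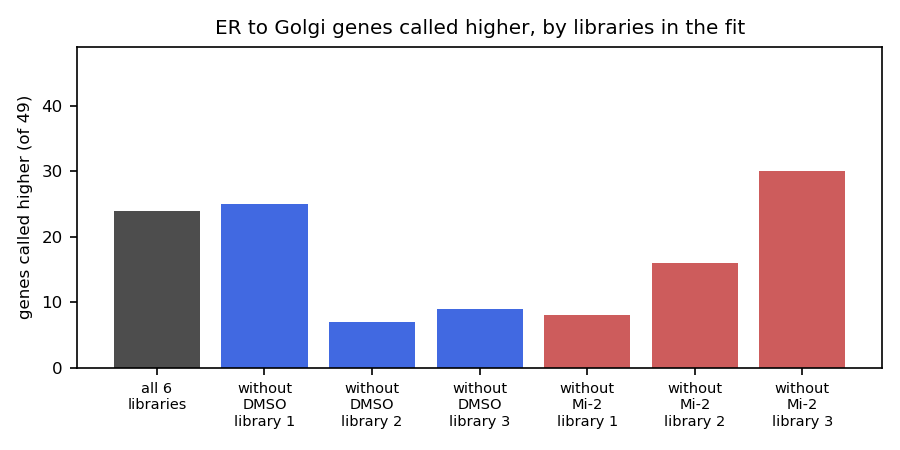
Number of the 49 genes called higher with Mi-2 (edgeR adjusted p under 0.05, y axis) with all 6 libraries (grey) and with each DMSO (blue) or Mi-2 (red) library left out. The count falls from 24 to 7, 9 and 8 without D2, D3 and M1.

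**Figure D3:**
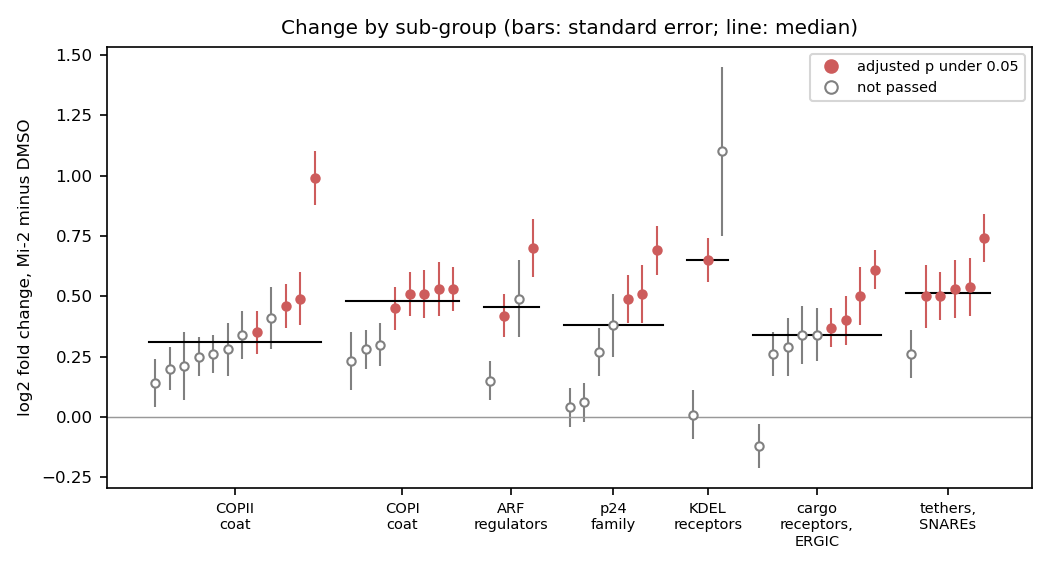
Log2 fold change of each gene (Mi-2 minus DMSO, y axis) with its standard error, by sub-group, with the sub-group's median as a line. Red filled points passed an edgeR adjusted p of 0.05. Only ERGIC1 lies below 0, at -0.12.

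Of the 12 COPII genes 4 rose, with a median log2 fold change of 0.31, and the largest change of the called members was in SEC24D. SEC24D, a cargo-selecting subunit of the inner coat (chromosome 4, 118722823 to 118838683, minus strand), had 173, 136 and 152 CPM with DMSO and 334, 292 and 287 CPM with Mi-2. Every Mi-2 library was well above every DMSO library. The log2 fold change was 0.99 ± 0.11 (SE), or 1.98-fold (edgeR adjusted p = 0.00209).

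The other SEC24 genes encode the same kind of adaptor with different cargo preferences, and none of the 3 passed. SEC24C had 218, 217 and 218 CPM with DMSO and 249.9, 263 and 264 CPM with Mi-2 (change 0.25 ± 0.08, edgeR adjusted p = 0.0665). SEC24A had 118, 109.8 and 111 CPM with DMSO and 149, 146 and 116 CPM with Mi-2 (change 0.28 ± 0.11, edgeR adjusted p = 0.119). M3 of SEC24A overlapped the DMSO range, and without M3 the gene was called (adjusted p = 0.0289). SEC24B was the lowest, with 33.0, 36.5 and 36.9 CPM with DMSO and 37.7, 42.7 and 37.1 CPM with Mi-2 (change 0.14 ± 0.10, edgeR adjusted p = 0.378).

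Per length, SEC24C led the family with DMSO (60.3 ± 2.49 TPM, mean ± SD, n = 3) and SEC24D with Mi-2 (101 ± 10.8 TPM). SEC24D made up 38.6, 32.9 and 35.9% of the summed SEC24 TPM with DMSO and 50.8, 46.6 and 47.0% with Mi-2. SEC24C went from 42.0 ± 1.89% to 34.2 ± 2.64%. Between the groups the log2 ratio of SEC24D to SEC24C differed by 0.74 ± 0.13, that to SEC24A by 0.72 ± 0.11 and that to SEC24B by 0.85 ± 0.18. Each of the 3 had an exact two-sided permutation p of 0.1, the smallest that 3 against 3 libraries allow, and an adjusted p of 0.175 over 7 paralogue pairs.

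**Figure D4:**
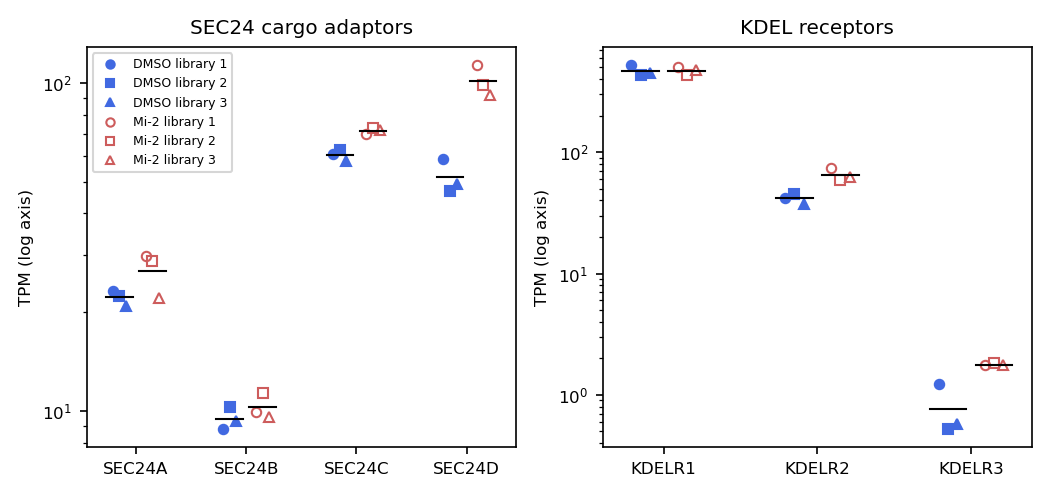
TPM (log axis) of the SEC24 cargo adaptors and the KDEL receptors in each library, with the group mean as a line (filled blue, DMSO; open red, Mi-2). SEC24D goes from below SEC24C with DMSO to above it with Mi-2, and KDELR1 stays the most abundant KDEL receptor at 468 and 469.5 TPM.

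SEC23B, the GTPase-activating partner of SEC24 (chromosome 20, 18507482 to 18561415, plus strand), had 104, 82.0 and 90.1 CPM with DMSO and 138, 132 and 119 CPM with Mi-2 and rose (0.49 ± 0.11, edgeR adjusted p = 0.0188). Its paralogue SEC23A had 41.1, 35.4 and 44.7 CPM with DMSO and 49.3, 54.9 and 48.9 CPM with Mi-2 (change 0.34 ± 0.10, edgeR adjusted p = 0.0685). The ranges of both were separate, and the log2 ratio of SEC23B to SEC23A differed by 0.15 ± 0.12 (exact permutation p = 0.4, two-sided, adjusted p = 0.467). SEC23B took 75.5 ± 2.51% of the pair's TPM with DMSO and 77.2 ± 1.27% with Mi-2.

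The outer coat genes rose together. SEC31A (chromosome 4, 82818661 to 82901166, minus strand) had 234, 219.5 and 224 CPM with DMSO and 338, 304 and 288 CPM with Mi-2 (change 0.46 ± 0.09, edgeR adjusted p = 0.0133). SEC13, which also serves in the nuclear pore (chromosome 3, 10293131 to 10321178, minus strand), had 129, 113 and 118 CPM with DMSO and 162, 151 and 148 CPM with Mi-2 (change 0.35 ± 0.09, edgeR adjusted p = 0.0294). Neither pair of ranges overlapped. SEC31A lost its call without D2, D3 or M1 (adjusted p up to 0.0636), and SEC13 and SEC23B also without M2 (up to 0.12 and 0.0793).

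Upstream in coat assembly no gene passed. PREB, the exchange factor for SAR1, had 225, 211 and 187 CPM with DMSO and 306, 226 and 297 CPM with Mi-2, with M2 next to the DMSO range (0.41 ± 0.13, edgeR adjusted p = 0.066). Without M2 it was called (adjusted p = 0.0281). SEC16A, the scaffold of ER exit sites, stood at 224 ± 3.39 and 267 ± 16.9 CPM (0.26 ± 0.08, adjusted p = 0.0785). The GTPases themselves had overlapping ranges in CPM. SAR1A had 45.4, 41.7 and 47.6 CPM with DMSO and 51.8, 55.4 and 47.2 CPM with Mi-2 (change 0.20 ± 0.09, edgeR adjusted p = 0.211). SAR1B had 107, 82.3 and 78.9 CPM with DMSO and 115, 109 and 86.5 CPM with Mi-2 (change 0.21 ± 0.14, edgeR adjusted p = 0.371). The CPM ratio of SAR1B to SAR1A differed by 0.02 ± 0.17 on the log2 scale (exact permutation p = 0.9, two-sided, adjusted p = 0.9). In deposited TPM SAR1B had separate ranges, 39.8, 36.9 and 31.6 with DMSO and 51.7, 48.0 and 43.4 with Mi-2. It did not pass there either (limma on log2(TPM + 1), adjusted p = 0.0994). SAR1B took 73.4 ± 2.87% of the pair's TPM with DMSO and 77.2 ± 2.16% with Mi-2. SAR1B and SEC24A lie head to head on chromosome 5 and share 483 bases on opposite strands. Use of strand in counting is not given in the sources used here, so reads there cannot be assigned with certainty.

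In the COPI coat 5 of 8 genes rose, with a median log2 fold change of 0.48. COPA, the alpha subunit and the most counted of the coat (chromosome 1, 160288686 to 160343400, minus strand), had 655, 574 and 632 CPM with DMSO and 946, 851 and 852 CPM with Mi-2 (change 0.51 ± 0.09, edgeR adjusted p = 0.0108). COPG1, a gamma subunit (chromosome 3, 129249606 to 129277773, plus strand), had 306, 261 and 285 CPM with DMSO and 443, 395 and 395 CPM with Mi-2 (change 0.53 ± 0.09, edgeR adjusted p = 0.00988). In both the Mi-2 libraries stood clear of the DMSO libraries. COPA shares 129 bases with NCSTN on the other strand, and NCSTN was itself called higher. COPB1, the beta subunit, had 207, 183 and 183 CPM with DMSO and 301, 291 and 237 CPM with Mi-2 (change 0.53 ± 0.11, edgeR adjusted p = 0.0158). COPB2, the beta-prime subunit, had 258, 214 and 238 CPM with DMSO and 366, 337 and 304 CPM with Mi-2 (change 0.51 ± 0.10, edgeR adjusted p = 0.0159). For both, M3 was the lowest of its group and still above every DMSO library. COPE, the epsilon subunit, had 199, 169 and 179 CPM with DMSO and 269, 237 and 243 CPM with Mi-2 (change 0.45 ± 0.09, edgeR adjusted p = 0.0172).

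The 5 called COPI genes had log2 fold changes between 0.45 and 0.53. COPG1 kept its call in all fits that left a library out. COPA lost it only without D2 (adjusted p = 0.0542). COPB2 and COPE lost theirs without D2, D3 or M1 (up to 0.0715 and 0.0784), and COPB1 also without M2 (up to 0.0715). The remaining subunits did not pass. ARCN1, the delta subunit, stood at 546 ± 26.3 CPM with DMSO and 673 ± 30.3 with Mi-2 (0.30 ± 0.09, edgeR adjusted p = 0.0526), and COPZ1, a zeta subunit, at 108 ± 6.31 and 131 ± 7.09 CPM (0.28 ± 0.08, adjusted p = 0.0643). COPG2, the scarce alternative to COPG1, had between 13.6 and 16.4 CPM with DMSO and 17.4, 18.5 and 15.9 CPM with Mi-2 (change 0.23 ± 0.12, edgeR adjusted p = 0.262). It made up 4.28 ± 0.661% of the gamma subunit TPM with DMSO and 3.29 ± 0.275% with Mi-2. The log2 ratio of COPG1 to COPG2 differed by 0.30 ± 0.14 (exact permutation p = 0.2, two-sided, adjusted p = 0.28).

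Among the ARF GTPases and their regulators, which start and end the COPI cycle, 2 of 4 rose. ARFGAP3, which triggers GTP hydrolysis by ARF on COPI vesicles (chromosome 22, 42796502 to 42858106, minus strand), had 90.9, 68.6 and 77.5 CPM with DMSO and 143, 127 and 114 CPM with Mi-2. No value overlapped, and the log2 fold change was 0.70 ± 0.12 (edgeR adjusted p = 0.00924). In the annotation ARFGAP3 shares 22695 bases with PACSIN2 on the same strand, and PACSIN2 was not called. GBF1, the exchange factor that loads ARF at the early Golgi (chromosome 10, 102245532 to 102382899, plus strand), had 184, 169 and 162 CPM with DMSO and 247, 217 and 224 CPM with Mi-2 (change 0.42 ± 0.09, edgeR adjusted p = 0.0182). Its call was lost without D2, D3 or M1 (up to 0.0842).

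The GTPase genes did not pass. ARF4 had 148, 104 and 106 CPM with DMSO and 191, 172 and 138 CPM with Mi-2. D1 lay above M3, and the change was 0.49 ± 0.16 (edgeR adjusted p = 0.0783). ARF4 was called without D1 (adjusted p = 0.0214) or M3 (0.0438). ARF1, at 422 TPM over all libraries the second most abundant member that did not pass, had 537, 498 and 534 CPM with DMSO and 586, 597 and 559 CPM with Mi-2 (change 0.15 ± 0.08, edgeR adjusted p = 0.279).

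In the p24 family, membrane proteins that cycle between ER and Golgi and sort cargo into both kinds of vesicle, 3 of 7 rose. TMED9 (chromosome 5, 177592158 to 177596124, plus strand) had 386, 329 and 328 CPM with DMSO and 617, 543 and 527 CPM with Mi-2, with no overlap (0.69 ± 0.10, edgeR adjusted p = 0.0053). TMED2 had 351, 300.1 and 311 CPM with DMSO and 489, 456 and 408 CPM with Mi-2 (change 0.49 ± 0.10, edgeR adjusted p = 0.0162). TMED7 had 79.5, 69.1 and 62.0 CPM with DMSO and 112, 98.9 and 88.1 CPM with Mi-2 (change 0.51 ± 0.12, edgeR adjusted p = 0.0257). The calls of TMED2 and TMED7 were lost without D2, D3 or M1, and that of TMED7 also without M2 (adjusted p up to 0.0762 and 0.103). TMED7 overlaps the read-through gene TMED7-TICAM2 on the same strand, so its reads may be divided between them.

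The other 4 p24 genes did not pass. TMED10 had 371, 343 and 322 CPM with DMSO and 443, 439.6 and 371 CPM with Mi-2, and M3 equalled D1 to 3 digits (0.27 ± 0.10, edgeR adjusted p = 0.111). TMED5 went from 86.2 ± 9.73 to 112 ± 17.2 CPM (0.38 ± 0.13, adjusted p = 0.0836) and was called without M3 (adjusted p = 0.0313). TMED3 (0.06 ± 0.08) and TMED4 (0.04 ± 0.08) had values within 1 standard error of 0 and overlapping ranges. Per length, TMED10 was the most abundant p24 gene with DMSO (281 ± 27.0 TPM) and TMED9 with Mi-2 (383 ± 32.6 TPM). The share of TMED9 in the summed p24 TPM was 27.2, 26.0 and 25.2% with DMSO and 32.6, 33.7 and 33.6% with Mi-2, while that of TMED10 went from 32.1 ± 0.362% to 27.4 ± 0.858%.

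The KDEL receptors, which catch escaped ER chaperones in the Golgi and return them in COPI vesicles, had unlike values. KDELR2 (chromosome 7, 6445953 to 6484242, minus strand) had 84.6, 76.6 and 79.0 CPM with DMSO and 139.6, 123 and 115 CPM with Mi-2 and rose without overlap (0.65 ± 0.09, edgeR adjusted p = 0.00496). KDELR1, the most abundant receptor, had 565, 459 and 524 CPM with DMSO and 542, 482 and 535 CPM with Mi-2. All 3 Mi-2 values of KDELR1 fell inside the DMSO range (0.01 ± 0.10, edgeR adjusted p = 0.967), and its sign turned on leaving out D2 (-0.07), M1 (-0.02) or M3 (-0.01). The log2 ratio of KDELR2 to KDELR1 was -2.74, -2.58 and -2.73 with DMSO and -1.96, -1.97 and -2.22 with Mi-2, a difference of 0.64 ± 0.10 (exact permutation p = 0.1, the smallest possible, two-sided, adjusted p = 0.175). KDELR2 took 8.22 ± 1.11% of the receptors' TPM with DMSO and 12.2 ± 0.553% with Mi-2.

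KDELR3 was barely expressed, with as few as 14 counts in a library. It had 1.24, 0.619 and 0.738 CPM with DMSO and 2.13, 1.60 and 1.85 CPM with Mi-2. Its point estimate was the highest of all members with the widest error and did not pass (1.10 ± 0.35, edgeR adjusted p = 0.0708). It was called without D1 (adjusted p = 0.0433). In the annotation KDELR2 shares 38238 bases with DAGLB on the same strand, and KDELR3 shares 8 bases with DDX17 on the other strand.

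Of the 9 cargo receptors and ERGIC proteins 4 rose. MCFD2, the partner of LMAN1 in exporting clotting factors and other glycoproteins (chromosome 2, 46901870 to 46941855, minus strand), had 78.3, 75.5 and 72.0 CPM with DMSO and 116, 123 and 107 CPM with Mi-2 (change 0.61 ± 0.08, edgeR adjusted p = 0.00441). Its gene overlaps TTC7A, on the other strand, over 25699 bases, and TTC7A was itself called higher. LMAN1 (ERGIC-53), the lectin subunit of that receptor, had 839.9, 703 and 707 CPM with DMSO and 1017, 1009 and 814 CPM with Mi-2. M3 of LMAN1 fell below D1, and the gene did not pass (0.34 ± 0.12, edgeR adjusted p = 0.0973). It was called without M3 (adjusted p = 0.0453).

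LMAN2 (VIP36), a related lectin (chromosome 5, 177331562 to 177351852, minus strand), had 322, 289 and 305 CPM with DMSO and 415, 385 and 387 CPM with Mi-2 (change 0.37 ± 0.08, edgeR adjusted p = 0.0231). SURF4, a broad cargo receptor for soluble secreted proteins, had 514, 468 and 422 CPM with DMSO and 663, 616 and 574 CPM with Mi-2 (change 0.40 ± 0.10, edgeR adjusted p = 0.0348). MIA3 (TANGO1), which fits exit sites to bulky cargo such as collagen, had 146, 156 and 135 CPM with DMSO and 206, 237 and 173 CPM with Mi-2 (change 0.50 ± 0.12, edgeR adjusted p = 0.0281). In each of the 3 the lowest Mi-2 library stood above the highest DMSO library. LMAN2 and SURF4 lost their calls without D2, D3 or M1 (up to 0.1 and 0.129), and SURF4 also without M2. MIA3 was called with all 6 libraries and without M3, but not without any of the other 5 (up to 0.105).

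MIA2, which works beside MIA3, stood at 47.3 ± 2.81 CPM with DMSO and 60.0 ± 8.22 with Mi-2 (0.34 ± 0.11, edgeR adjusted p = 0.0761) and was called without M3 (adjusted p = 0.0194). None of the ERGIC membrane proteins passed. ERGIC1 had 639, 601 and 554 CPM with DMSO and 592, 538 and 523 CPM with Mi-2 and was the sole member with a negative value (-0.12 ± 0.09, edgeR adjusted p = 0.468), with overlapping ranges. ERGIC2 (0.29 ± 0.12, adjusted p = 0.16) and ERGIC3 (0.26 ± 0.09, adjusted p = 0.0788), which form complexes with ERGIC1, had positive values that did not pass. ERGIC2 was called without M3 (adjusted p = 0.0496).

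Of the tethers, SNAREs and YIPF5, 5 of 6 rose, with a median log2 fold change of 0.52. STX5, the Golgi syntaxin on which arriving vesicles fuse (chromosome 11, 62806897 to 62832088, minus strand), had 45.5, 36.3 and 43.8 CPM with DMSO and 72.6, 68.7 and 68.0 CPM with Mi-2. The Mi-2 libraries lay close together and far above the DMSO libraries (0.74 ± 0.10, or 1.67-fold, edgeR adjusted p = 0.00404). SEC22B, a vesicle SNARE that pairs with STX5, had 62.1, 53.8 and 56.0 CPM with DMSO and 88.6, 81.6 and 72.3 CPM with Mi-2 (change 0.50 ± 0.10, edgeR adjusted p = 0.0145). Its named pseudogene SEC22B2P held 0.367% of their joint counts. BET1, another vesicle SNARE, had 27.3, 21.5 and 28.5 CPM with DMSO and 40.4, 36.3 and 35.4 CPM with Mi-2 (change 0.54 ± 0.12, edgeR adjusted p = 0.0241).

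USO1 (p115), the tether that draws vesicles to the Golgi, had 276, 234 and 219.6 CPM with DMSO and 375, 376 and 283 CPM with Mi-2. M3 of USO1 was just above D1 (0.50 ± 0.13, edgeR adjusted p = 0.0379). YIPF5, a membrane protein of ER exit sites and the early Golgi, had 83.2, 68.3 and 77.1 CPM with DMSO and 126, 109 and 95.9 CPM with Mi-2 (change 0.53 ± 0.12, edgeR adjusted p = 0.02). GOSR2, the remaining Golgi SNARE, did not pass (84.3 ± 7.83 and 101 ± 10.9 CPM, 0.26 ± 0.10, adjusted p = 0.137). SEC22B lost its call without D2, D3 or M1 (up to 0.0668), and USO1 and YIPF5 also without M2 (up to 0.138 and 0.0835). BET1 lost it without D2, M1 or M2 (up to 0.0982).

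Of the 25 members that were not called, 11 had separate ranges with Mi-2 higher, 12 had an adjusted p between 0.05 and 0.1, and 16 had an unadjusted p under 0.05. Over all genes tested, called or not, 15.7% had separate ranges with Mi-2 higher. An unadjusted edgeR p under 0.05 with Mi-2 higher was found for 12.9%. The shares among all genes that were not called were not counted, so these counts have no matching base. The most abundant member over all libraries per length was LMAN2, followed by KDELR1 (474 and 469 TPM), and the least abundant KDELR3.

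A wider list of 67 genes of ER to Golgi transport and its transcription factors was examined beside the members. Of the 62 that were tested, 13 rose (21.0%, against 5.02% of all genes tested) and none fell, with a median of 0.17. TMED8, a relative of the p24 genes named here after its values were seen, had a change of -0.30 ± 0.08 (edgeR adjusted p = 0.0508), and DESeq2 called it lower (adjusted p = 0.0332). GOLGA2 (GM130), a matrix protein of the cis-Golgi that binds USO1, had 93.0, 84.6 and 93.4 CPM with DMSO and 152, 134 and 137 CPM with Mi-2 (change 0.64 ± 0.09, edgeR adjusted p = 0.00404). The giant Golgi tether gene GOLGB1 had 225, 164 and 181 CPM with DMSO and 351, 290.0 and 273 CPM with Mi-2 (change 0.68 ± 0.14, edgeR adjusted p = 0.0148). YIPF2, a relative of YIPF5, had 56.5, 53.3 and 56.7 CPM with DMSO and 91.9, 88.8 and 84.7 CPM with Mi-2 (change 0.67 ± 0.08, edgeR adjusted p = 0.0024). In all 3 the treatments were separate. The Golgi SNARE gene BET1L also rose (0.44 ± 0.10, adjusted p = 0.022). Of the 13 genes of TRAPP, a tethering complex that activates RAB1, 1 rose (7.69%), close to the share of all genes tested. The calls of GOLGA2 and YIPF2 held with any library left out, while those of GOLGB1 and BET1L were lost without D2, D3 or M1 (up to 0.0667 and 0.0902).

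Transcription factors known to act on these genes were in the same list. CREB3 had 29.7, 26.9 and 33.4 CPM with DMSO and 49.3, 47.3 and 49.2 CPM with Mi-2 and rose (0.70 ± 0.10, edgeR adjusted p = 0.00468). ATF6B, a relative of the ER stress sensor ATF6, rose too (0.46 ± 0.08, adjusted p = 0.0111), a call lost without D2 or M1 (up to 0.0529). ATF6 itself had overlapping ranges (0.09 ± 0.08, adjusted p = 0.528). XBP1 had 2838, 2796 and 1843 CPM with DMSO and 2265, 2114 and 2185 CPM with Mi-2. Its Mi-2 values lay between D3 and the other two DMSO libraries (-0.19 ± 0.15, edgeR adjusted p = 0.479), and gene-level counts do not separate its spliced form. CREB3L2, a factor known to drive SEC23 and SEC24 genes in secretory cells, had a value of 0.12 ± 0.08 (adjusted p = 0.356), and CREB3L1 had at most 3 counts in a library.

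RefSeq promoter windows (250 bases before to 50 after a transcription start, GRCh38.p14) matched 41 of the 49 members, and ARF4, ERGIC1, KDELR2, MIA2, SEC24D, TMED4, TMED9 and USO1 had no entry. They were searched on both strands for letters known from promoters of the unfolded protein response. The TGACGTG core of the XBP1 and ATF6 site occurred in 13 of the 41 genes (31.7%), against 2.4% of the 27305 genes in the table and 3.36% of the 11154 that were also tested here. It occurred in 8 of 20 called members and in 5 of 21 others. The called members SEC24D, TMED9, KDELR2 and USO1 had no entry and are not in this count. Of these, SEC24D, TMED9 and KDELR2 kept their calls whichever library was removed. The 13 were STX5, COPA, COPB1, COPB2, COPE, GBF1, MIA3 and SEC13 among called genes and ARF1, KDELR3, SEC16A, SEC23A and SEC24A among the others. CCACG, which overlaps the core where a G follows it, occurred in 87.8% of the members, 42.1% of all genes and 56.8% of tested genes. It occurred in 16 of 20 called members and in 20 of 21 others, the opposite order to the core. The full ER stress response elements, ERSE and ERSE-II, both of which contain CCACG, occurred in none of the 41 and in 0.0916% and 0.0696% of all genes. Members' windows had a median GC content of 67.2%, those of tested genes 64.3% and all windows 58.7%, and motif frequency depends on base composition.

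The windows below show where the core lies in the 5 called genes that hold it wholly before the start. Each is the 250 bases before the start of 1 RefSeq transcript, the one farthest upstream where several starts had a match, read 5′ to 3′ along the gene, with TGACGTG or its reverse complement CACGTCA in capitals.
STX5, chr11:62832052-62832301, minus strand, core at -16 to -10: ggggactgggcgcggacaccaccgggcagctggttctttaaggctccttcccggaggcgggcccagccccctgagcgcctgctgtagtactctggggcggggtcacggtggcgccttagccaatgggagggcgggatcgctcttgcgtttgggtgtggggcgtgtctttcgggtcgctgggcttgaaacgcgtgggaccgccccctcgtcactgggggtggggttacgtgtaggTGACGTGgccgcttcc
COPB1, chr11:14499812-14500061, minus strand, core at -47 to -41: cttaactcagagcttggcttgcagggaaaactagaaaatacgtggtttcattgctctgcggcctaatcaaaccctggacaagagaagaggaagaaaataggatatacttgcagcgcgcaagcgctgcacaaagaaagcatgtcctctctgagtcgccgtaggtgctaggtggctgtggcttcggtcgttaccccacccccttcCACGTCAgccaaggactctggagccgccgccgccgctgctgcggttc
COPB2, chr3:139389681-139389930, minus strand, core at -162 to -156: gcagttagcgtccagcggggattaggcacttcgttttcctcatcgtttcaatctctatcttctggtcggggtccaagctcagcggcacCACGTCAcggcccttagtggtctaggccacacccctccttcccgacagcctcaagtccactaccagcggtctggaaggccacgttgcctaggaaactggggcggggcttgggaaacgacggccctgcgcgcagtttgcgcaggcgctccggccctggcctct
MIA3, chr1:222644079-222644328, plus strand, core at -27 to -21: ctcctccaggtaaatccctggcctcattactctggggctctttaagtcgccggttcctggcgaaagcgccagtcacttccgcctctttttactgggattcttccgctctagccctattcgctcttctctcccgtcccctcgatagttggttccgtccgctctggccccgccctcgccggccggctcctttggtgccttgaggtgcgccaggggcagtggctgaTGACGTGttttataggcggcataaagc
SEC13, chr3:10321113-10321362, minus strand, core at -143 to -137: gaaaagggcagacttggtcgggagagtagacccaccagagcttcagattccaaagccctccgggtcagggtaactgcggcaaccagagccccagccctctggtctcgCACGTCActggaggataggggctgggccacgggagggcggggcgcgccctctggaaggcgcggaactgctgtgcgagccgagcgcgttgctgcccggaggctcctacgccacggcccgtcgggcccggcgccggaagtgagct
In STX5, COPB1 and MIA3 the core stood within 50 bases before the RefSeq start used. COPB2 held another core at 31 to 37 after the start used, outside the bases printed. At its other RefSeq start COPB2 had cores at -195 to -189 and at -2 to 4. For MIA3 the whole window lies inside the gene as GENCODE draws it (222618086 to 222668012), so that start is an internal one. The starts of STX5, COPB1, COPB2 and SEC13 also lie inside their GENCODE genes, but their windows reach past the gene's outer end. STX5 had the largest change of the 5 (0.74) and SEC13 the smallest (0.35). A match of letters is a description and shows no binding.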

How the data were processed

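RNA of 6 H929 libraries was sequenced in read pairs on a NovaSeq instrument, per the labels' protocols. Per the submitters' processing notes, the tools were RSEM 1.3.3, StringTie 2.1.0, HISAT2 2.1.0 and fastp 0.19.5. Their roles were not stated there. The authors deposited estimated counts per gene, partly fractional and unscaled, and length-corrected TPM. Gene symbols came from a gene table for 62625 of 62703 IDs. Coordinates are those of GENCODE 29 (GRCh38).

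Estimated counts were rounded and filtered with filterByExpr (minimum count 10, minimum total 15). Mi-2 was compared with DMSO by the quasi-likelihood test of edgeR 4.0.16 in R 4.3.3 after TMM scaling, and p-values were adjusted by Benjamini-Hochberg over 16082 genes. The standard error is the fold change on the log2 scale divided by the root of F. The biological coefficient of variation was 14.2%, which with 3 libraries per group limits the detection of small changes. The test was also run on simulated counts whose means and dispersions were taken from these data, and its results are not given here. Libraries of 1 group differed by 15.0 to 21.1 chi-square units per degree of freedom, so none was a copy. Same-numbered libraries had correlations of 0.41, 0.06 and 0.26 between their deviations from the group means. Libraries of different numbers had -0.33 to 0.08. The numbers were not treated as pairs because the labels name no pairs, and whether they mark a shared batch was not tested.

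The same comparison was repeated with other scalings (RLE, upper quartile), with DESeq2 1.42.0 and voom (limma 3.58.1), with no filter or a filter of 1 CPM in 3 libraries, without immunoglobulin genes and the top 20 genes by count, with limma on log2(TPM + 1) and log2(TPM + 0.1), whose fold changes understate low genes, with a block for the number, and without each library in turn. Members, lists and motifs were chosen with earlier results of these data known. Named genes are called members, the SEC24, SEC23, SAR1, COPG and KDEL receptor paralogues, 4 abundant members that did not pass, and of the wider list the 6 largest called changes and 4 transcription factors. Other members are given in short form.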

Additional observations from a re-analysis of the deposited data

How the results depend on the processing

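Between 47 and 48 of the 49 members had a positive change in every alternative, and none was called lower. The median of the members ran from 0.36 to 0.47. Limma on log2(TPM + 1) and on log2(TPM + 0.1), with a mean TPM of at least 1, each called 12 members and 3 genes of the wider list higher. They called 1.64% and 1.78% of all genes higher, and 4.36% and 4.63% in either direction. Limma on log2(TPM + 1) without a TPM filter called 0 members, 0 genes of the wider list and 0% of all genes. DESeq2 called 32 members, among them all 24 of the edgeR calls. A replicate block was added for the library number, which the labels do not state as a pairing. With it 40 members and 22 genes of the wider list were called higher. So were 11.1% of all genes (23.8% in either direction), and 1 gene of the wider list was lower. D1 correlated best with M1 (0.41) and D3 with M3 (0.26), while D2 had 0.06 with both M2 and M3. With 1 library left out, between 7 and 30 members and between 3 and 11 genes of the wider list were called higher. Of all genes, 1.31% to 4.37% were called higher and 3.14% to 9.66% in either direction. The wider list had 0 or 1 gene lower. TMED8 alone was called lower in the wider list, giving 1 with DESeq2, RLE scaling, the filter of 1 CPM in 3 libraries, no filter on low counts and the fit without M2. KDELR1 ran from -0.07 to 0.08 and TMED4 from -0.00 to 0.09 with 1 library left out. The cause of these shifts was not tested. KDELR3 had the fewest counts of the members, as few as 14 in a library, and its error was the widest.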
